A study of Mus musculus with 9 samples.

Results

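The clustered histone genes encode the linker histone H1 and the core histones H2a, H2b, H3 and H4. They were taken here as every gene of the series table whose symbol starts with Hist1h, Hist2h, Hist3h or Hist4h, which gave 69 of 24532 genes. The 69 genes comprised 6 of H1, 19 of H2a, 19 of H2b, 12 of H3 and 13 of H4. Of these, 55 lay on chromosome 13, 10 on chromosome 3, 3 on chromosome 11 and 1 on chromosome 6 in the mm10 coordinates of the table. The study sorted neutrophils from the bone marrow, the blood and the lung of wild type C57BL/6 mice and sequenced polyA RNA from 3 biological replicates per tissue, 9 libraries in all. Every group thus shared strain and genotype and differed in tissue of origin. The sources used here do not give age, sex, sorting markers or whether animals were pooled.

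Core histones form the octamer around which DNA is wrapped, and H1 binds the linker DNA between octamers. Most clustered histone genes are transcribed in S phase, and their transcripts end in a short stem-loop instead of a polyA tail. The stem-loop is bound by Slbp, and the transcript is cut just after it. Some members are also known to give longer, polyadenylated transcripts outside S phase. Neutrophil precursors divide in the marrow, and mature neutrophils do not. Because polyA RNA was sequenced here, a transcript that ends at the stem-loop has no tail by which to be captured.

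The stem-loop is shown for 6 members because the transcripts differ in how far they run past it. Each line gives 26 bases of the GENCODE M21 transcript in DNA letters, 5′ to 3′, and capitals mark the match to the histone 3′ stem-loop, searched as a pattern of 16 bases with 5 of them free.

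Hist1h1c: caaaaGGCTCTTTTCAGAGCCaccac

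Hist2h2aa1: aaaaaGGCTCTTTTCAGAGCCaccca

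Hist1h2bg: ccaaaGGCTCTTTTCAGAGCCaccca

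Hist1h4i: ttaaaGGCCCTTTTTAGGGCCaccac

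Hist1h4n: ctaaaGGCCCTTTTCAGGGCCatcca

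Hist1h3a: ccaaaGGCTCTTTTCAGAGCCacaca

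The motif was searched on the transcript strand only. It occurred after the coding sequence in 44 of the 69 members, and in 0.0875% of all GENCODE transcripts against 59.7% of the members' transcripts at any position. Of the other members, 18 had at most 100 bases annotated after the coding sequence and 2 had no annotated coding sequence. For these a missing match need not mean a missing stem-loop. In Hist1h1c, which encodes an H1 linker histone, the annotated transcript ran on for 840 bases past the stem-loop and held the polyadenylation signal AATAAA. In Hist2h2aa1, an H2a gene, it stopped 35 bases after the stem-loop. The transcript of Hist1h4i ran on for 330 bases, that of Hist1h2bg for 155, that of Hist1h3a for 37 and that of Hist1h4n for 31. Hist1h2bc, the H2b gene with the most reads, had no match in its 742 bases after the coding sequence but did hold AATAAA.

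Of the 69 members, 62 had a promoter in the RefSeq table of GRCm38.p6. The 150 bases just before the RefSeq start are shown for 4 named members, 1 from each of the families with most reads. Capitals mark, on either strand, the box CCAAT, the box with the letters TATAAA, or the octamer ATTTGCAT, motifs long known from histone promoters.

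Hist1h1c, chr13:23738657-23738806, plus strand: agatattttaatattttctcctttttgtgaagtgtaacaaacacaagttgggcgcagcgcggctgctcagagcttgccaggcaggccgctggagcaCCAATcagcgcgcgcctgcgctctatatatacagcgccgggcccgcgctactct

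Hist2h2aa1, chr3:96245347-96245496, plus strand: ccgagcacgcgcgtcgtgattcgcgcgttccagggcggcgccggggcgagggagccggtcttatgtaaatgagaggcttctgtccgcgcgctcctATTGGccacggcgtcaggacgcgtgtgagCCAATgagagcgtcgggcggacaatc

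Hist1h2bg, chr13:23571250-23571399, plus strand: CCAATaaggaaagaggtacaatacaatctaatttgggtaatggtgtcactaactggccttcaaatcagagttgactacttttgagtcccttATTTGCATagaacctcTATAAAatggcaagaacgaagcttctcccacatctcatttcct

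Hist1h4i, chr13:22041363-22041512, minus strand: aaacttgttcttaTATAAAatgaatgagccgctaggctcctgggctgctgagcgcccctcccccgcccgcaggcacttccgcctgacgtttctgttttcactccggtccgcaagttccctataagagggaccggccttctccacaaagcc

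Within 250 bases before the start, CCAAT was found on either strand in 82.3% of the 62 members and in 37.5% of all genes in the table. TATAAA was found in 46.8% of members and 14.3% of all genes. The octamer was found in 22.6% of members and 1.81% of all genes, and its 14 carriers were 7 H2a and 7 H2b genes. CCAAT was found in all 6 H1, all 18 matched H2a and all 16 matched H2b genes but in 3 of 12 H4 genes. These matches are descriptions of letters in this window and are not measurements of binding.

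The libraries held 42045548 to 56796219 reads assigned to genes, and the members took 0.0427% to 0.0662% of them. Of the 69 members, 50 had enough reads for the test, and the other 19 reached at most 16 reads in any library. Hist1h2aa, an H2a gene, had 0 reads in all 9 libraries, which allows up to 3 reads or 0.0528 to 0.0714 CPM (counts per 1e6 reads) per library, for counting error only. All 14 neutrophil markers were detected, and Csf3r, the receptor for the neutrophil growth factor G-CSF, lay between 4394 and 15905 CPM. Markers of other cells were uneven: the summed lung epithelium list was 910.5, 283 and 78.5 CPM in lung replicates 1 to 3, against 17.4 to 92.4 in marrow and blood. The fibroblast list summed to 1889, 1512 and 118 CPM in the same lung libraries. The erythroid list summed to 53.3 to 445 CPM in lung and 829.7 to 9440 in the other libraries. The B cell list summed to 33.7 to 127 CPM in marrow, and to 492, 475 and 78.1 in blood and 523, 471 and 53.4 in lung. Each of the 10 markers of each of these 4 lists had reads in at least 1 library. The endothelium list summed to 33.0 to 51.6 CPM in marrow and blood and to 134, 95.1 and 37.4 in lung replicates 1 to 3. The monocyte and macrophage list summed to 1788 to 2353 CPM in marrow, 881 to 898 in blood and 819 to 1616 in lung. In the test below, 7 endothelium genes were higher and 0 lower in lung than marrow. For monocytes and macrophages 8 were higher and 1 lower, where 15.6% and 22.6% of all genes were. The part of all these cells in the results below was not tested. In bulk samples fewer cells of a type and less RNA per cell cannot be told apart.

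A few genes carried most of the signal. On the per-length scale of the deposited FPKM (fragments per kilobase and 1e6 reads), Hist1h1c was the highest member with a mean of 324 over 9 libraries. Hist2h2aa1 followed at 148 FPKM, Hist1h2bc at 111, Hist2h2aa2 at 65.7, Hist1h4i at 35.9 and Hist1h2bg at 28.2. Hist1h4n at 15.1 and Hist3h2a at 10.5 were the only others of the 69 above 10 FPKM, and 28 members averaged 1 FPKM or more. Hist1h1c, Hist1h2bc and both Hist2h2aa copies together held 80.6% of all member reads. The next in FPKM were Hist1h2be at 8.04, the linker histone genes Hist1h1e at 5.40 and Hist1h1d at 5.27, and Hist1h2bq at 5.13. H3 was the weakest family, with a summed level of 6.66 FPKM in marrow against 441 for H1.

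**Figure D1:**
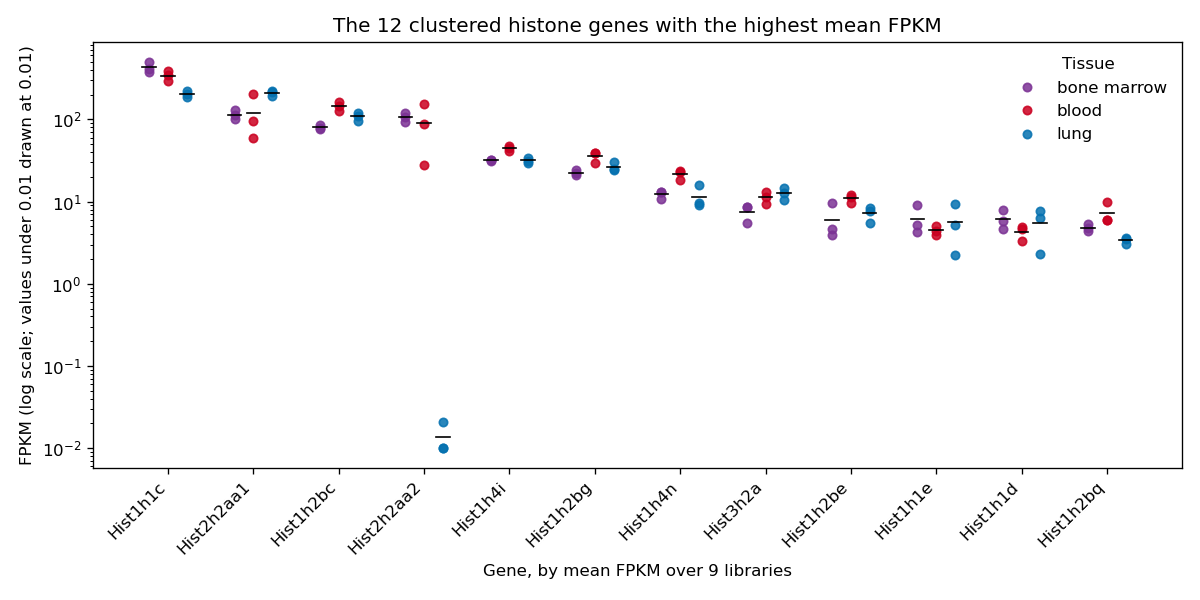
FPKM (log axis) of the 12 clustered histone genes with the highest mean, as points for each of the 9 libraries and a black line at each tissue mean. Hist1h1c falls from marrow to blood to lung, and Hist2h2aa2 is near 0 in lung while Hist2h2aa1 is at 192 to 219.

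The summed level of all members was 611, 737 and 752 CPM in marrow, 576, 492 and 607 in blood and 419, 375 and 550 in lung (CPM scaled by the TMM method, which sets libraries to a common level over most genes). Marrow libraries were above all blood and lung libraries, and blood overlapped with lung. The sum differed by -0.33 on the log2 scale from marrow to blood, by -0.33 from blood to lung and by -0.66 from marrow to lung. The first of these depended on the scaling: it was 0.05 with plain CPM of the library total and 0.04 with summed FPKM. Sums over members were given no test.

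The families did not move alike. The H1 sum was 334, 432 and 371 CPM in marrow, 247, 236 and 214 in blood and 152, 143 and 183 in lung. No blood library reached the marrow libraries, and no lung library reached the blood libraries. The H2b sum was 109, 114 and 145 CPM in marrow, 164, 129 and 211 in blood and 118, 100.1 and 164 in lung, with overlap in every comparison. The H2a sum was 140, 162 and 206 CPM in marrow, 133, 98.6 and 145 in blood and 122, 110.1 and 175 in lung, again overlapping. H4 summed to 23.3, 23.9 and 26.2 CPM in marrow, 28.1, 25.0 and 32.6 in blood and 22.5, 18.6 and 25.5 in lung, overlapping throughout. At each replicate number the lung library was below the blood library for the H2b sum, the H4 sum and the sum of all members. The labels name no animal shared by libraries of the same number, so these are not established pairs. H3 summed to 4.65, 5.0 and 4.40 CPM in marrow, 3.51, 2.76 and 3.78 in blood and 4.74, 3.55 and 2.48 in lung. Blood lay below marrow for H3, and lung overlapped with both.

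In log2 terms the H1 sum differed by -0.70 from marrow to blood, -0.55 from blood to lung and -1.25 from marrow to lung. It kept this direction under every scaling and unit and with each library left out, between -0.32 and -0.79, between -0.39 and -0.69, and between -0.94 and -1.36. Hist1h1c alone held 96.9%, 97.2% and 94.4% of H1 reads in marrow, blood and lung (tissue means), so the H1 sum mostly shows that gene. All 4 tested H1 genes had lower fitted levels in blood than marrow. In lung 3 were higher and 1 lower than in blood, and 1 was higher and 3 lower than in marrow. The H2b sum was higher in blood than marrow by 0.44 (0.26 to 0.82 over the same alternatives) and differed by -0.40 from blood to lung (-0.60 to -0.22). From marrow to lung it differed by 0.04, and alternatives gave both signs, -0.16 to 0.35. The H4 sum differed by 0.22 from marrow to blood (0.12 to 0.59) and by -0.37 from blood to lung (-0.52 to -0.21). The H2a and H3 sums changed sign among alternatives from blood to lung, between -0.10 and 0.26 for H2a and between -0.16 and 0.30 for H3.

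Shares of the member reads do not depend on the scaling between libraries. They are parts of a whole, so a lower H1 share raises the shares of the others without a change in their level. Hist1h1c alone held 52.5%, 40.9% and 33.8% of member reads in marrow, blood and lung (tissue means). H1 held 54.6%, 58.6% and 49.3% of member reads in marrow, 42.9%, 48.0% and 35.3% in blood and 36.2%, 38.0% and 33.4% in lung. H2b held 17.9%, 15.5% and 19.2% in marrow, 28.5%, 26.3% and 34.7% in blood and 28.2%, 26.7% and 29.8% in lung. The marrow libraries stood apart from the other 6 on both shares, higher for H1 and lower for H2b. There were 0.327 ± 0.063 H2b reads per H1 read in marrow (SD, n = 3), 0.732 ± 0.227 in blood and 0.792 ± 0.096 in lung. The H4 share was 3.51% ± 0.29 in marrow (SD, n = 3), 5.11% ± 0.25 in blood and 5.0% ± 0.37 in lung, and neither blood nor lung overlapped with marrow. The H2a share was 24.1% ± 2.8 in marrow (SD, n = 3), 22.4% ± 2.1 in blood and 30.0% ± 1.5 in lung, where it lay above both other tissues.

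**Figure D2:**
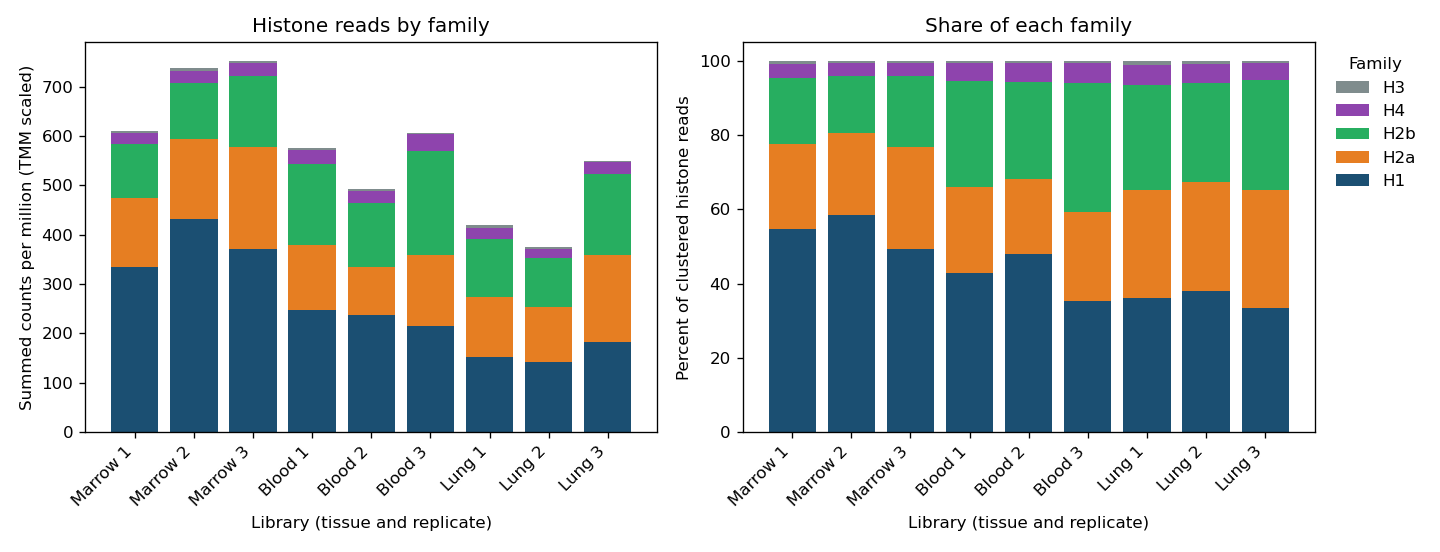
Stacked bars per library of the reads of the 5 families, as summed TMM-scaled CPM (left) and as a percent of all clustered histone reads (right). The H1 part, mostly Hist1h1c, shrinks from 49.3% to 58.6% in marrow to 33.4% to 38.0% in lung. The H2b part is larger outside the marrow.

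Each member was then tested in a single fit of all 13510 genes with enough reads (edgeR quasi-likelihood test, Benjamini-Hochberg adjusted over all of them, threshold 0.05). Between blood and marrow 1 of 50 members passed, lower in blood, where 21.4% of all genes tested passed (8.34% higher and 13.1% lower). Between lung and blood 4 of 50 passed, 1 higher and 3 lower in lung, where 28.9% of all genes passed (13.2% higher and 15.7% lower). Between lung and marrow 2 of 50 passed, both lower in lung, where 38.2% of all genes passed (15.6% higher and 22.6% lower). Libraries of the same replicate number deviated together between blood and lung and between marrow and lung, so the fit with the replicate number as a block is given for these. Deviations from the tissue means also correlated between unlike numbers of blood and lung, at up to 0.453, so shared animals are not established. With that replicate block 7 members passed from blood to lung, 1 higher and 6 lower, where 35.2% of all genes passed (15.3% and 19.8%). From marrow to lung 5 passed, 1 higher and 4 lower, where 44.2% passed (18.2% and 26%). With and without the block, the members passed less often than all genes in each comparison, which was not tested as a difference. Without the block, the members' median log2 fold changes were -0.32, -0.26 and -0.39, beside -0.05, 0.05 and 0.06 over all genes. Groups did not overlap for 16, 15 and 14 of the 50 members, and for 45.4%, 41.6% and 49.0% of all genes tested. These were 5 members higher and 11 lower in blood than marrow (19.8% and 25.6% of all genes), 3 higher and 12 lower in lung than blood (17.6% and 24.0%), and 3 higher and 11 lower in lung than marrow (20.1% and 28.9%). Median fold changes of all genes moved to 0.11, 0.21 and 0.38 with upper-quartile scaling, and then 2 members were higher and 1 lower, 1 higher and 2 lower, and 4 higher and 2 lower. Of all genes 12.5% passed as higher and 11.3% as lower, 23.8% in all, from marrow to blood under that scaling. From blood to lung they were 16.2% and 12.8%, 29.1% in all, and from marrow to lung 23.0% and 15.8%, 38.7% in all. With limma on log2(FPKM + 0.1), 8 members passed from marrow to blood, each higher, where 24.8% of all genes passed (16.7% higher and 8.19% lower). From blood to lung 16 passed, each lower, where 32.5% of all genes passed (11.3% higher and 21.2% lower). From marrow to lung 3 passed as higher and 2 as lower, where 34.8% of all genes passed (17.7% and 17.1%).

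**Figure D3:**
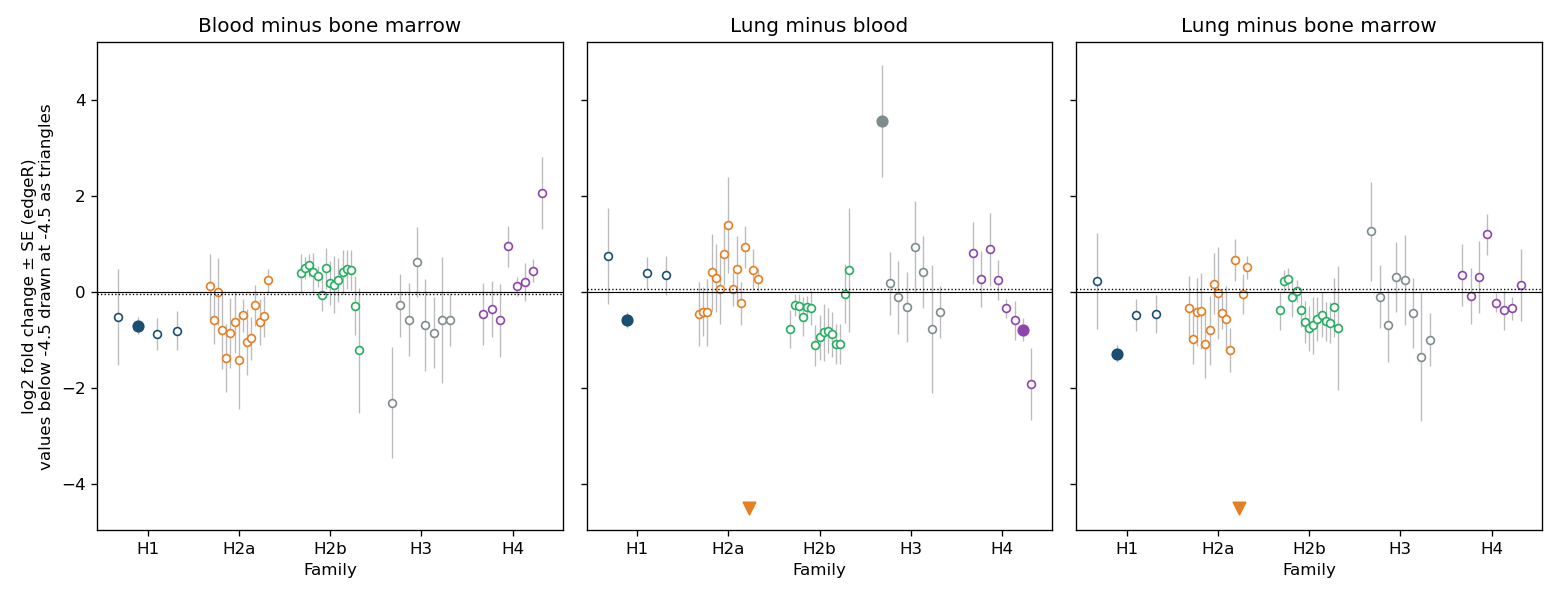
log2 fold change and standard error (edgeR) of the 50 tested members in 3 comparisons, by family, with filled symbols for adjusted p under 0.05, a dotted line at the median of all genes and triangles for Hist2h2aa2, which lies below the axis. Of the H2b genes, 12 of 15 are above 0 from marrow to blood and 14 of 15 are below 0 from blood to lung.

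Hist1h1c, at chr13:23738807-23739531, was the member called in all 3 comparisons. It was at 324, 416 and 361 CPM in marrow, 240, 229 and 208 in blood and 140, 133 and 179 in lung. The 3 tissues did not overlap, in the order marrow, blood, lung. The log2 fold change was -0.70 ± 0.17 (SE) from marrow to blood, adjusted p = 0.0204 (edgeR), and -0.58 ± 0.17 from blood to lung, adjusted p = 0.0324. From marrow to lung it was -1.28 ± 0.17, adjusted p = 0.000578, a level 2.44-fold lower. The last call held in 20 of 20 alternatives, while the first was lost in 10 of 20 and the second in 13 of 21. Losses of the first included leaving out marrow replicate 2 or 3 or any blood library, with adjusted p between 0.0696 and 0.234. On FPKM the marrow values of 406, 502 and 377 overlapped with blood at 347, 382 and 290, and lung lay below both at 221, 203 and 188.

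Lung replicate 3, which had the lowest levels of the lung epithelium and fibroblast lists, had the highest Hist1h1c of the lung libraries. Its 179 CPM lay below all marrow and blood libraries, and the part of lung cells in this was not tested. The neutrophil list summed to 112700 to 161982 CPM in marrow, 31185 to 44721 in blood and 21791 to 40068 in lung, and 13 of its 14 genes were called lower in lung than marrow. In blood 11 were called lower and 1 higher than in marrow, and 2 were lower in lung than blood, where the sums overlapped. Of all genes 22.6% were lower in lung than marrow, and 13.1%, 8.34% and 15.7% were called in the other 3 directions. Most of the list was thus lower outside the marrow, as Hist1h1c was, and its part in the result was not tested. The other H1 genes were far lower. Hist1h1d was at 4.98, 7.0 and 4.76 CPM in marrow, 3.40, 3.16 and 2.58 in blood and 5.14, 4.48 and 2.36 in lung. Hist1h1e was at 4.41, 8.08 and 4.47 CPM in marrow, 2.96, 3.30 and 3.42 in blood and 6.30, 3.73 and 2.28 in lung. Blood lay below marrow for both, with adjusted p = 0.102 for Hist1h1d and 0.193 for Hist1h1e (edgeR), and lung overlapped with both tissues.

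Hist2h2aa1 and Hist2h2aa2 encode H2a from an inverted repeat on chromosome 3, and the series table lists both at the same 2 places, chr3:96239779-96246052. Every 75-base stretch of Hist2h2aa2 also occurs in another member. Hist2h2aa1 was given 2573, 3667 and 3710 reads in marrow, 1450, 2513 and 4972 in blood and 5830, 4840 and 6386 in lung. Hist2h2aa2 was given 2580, 3707 and 3710 reads in marrow, 4029, 2514 and 728 in blood and 1 in each lung library. The split was nearly even in marrow, varied in blood and fell wholly to Hist2h2aa1 in lung. The fit accordingly called Hist2h2aa2 lower in lung than in blood, adjusted p = 0.000227, and than in marrow, adjusted p = 3.66e-05 (edgeR), and no fold is given because each lung value is 1 read, rounded up from less.

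With the replicate block Hist2h2aa1 passed as higher in lung than blood, by 1.10 ± 0.25 (SE) in log2, adjusted p = 0.0149 (edgeR), in the same split of reads. Summed, the pair was at 123, 145 and 190 CPM in marrow, 119, 87.4 and 129 in blood and 106, 96.5 and 159 in lung. All 3 tissues overlapped. Fitted as 1 feature, the pair differed by -0.44 ± 0.25 (SE) from marrow to blood, 0.10 ± 0.25 from blood to lung and -0.34 ± 0.25 from marrow to lung, with adjusted p = 0.245, 0.794 and 0.307 (edgeR). The RSEM tables of the same blood and lung libraries gave Hist2h2aa2 1253, 1473 and 1993 estimated counts in blood and 1723, 1682 and 1791 in lung, which overlapped. In that fit Hist2h2aa2 differed by 0.20 from blood to lung, adjusted p = 0.592 (edgeR).

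**Figure D4:**
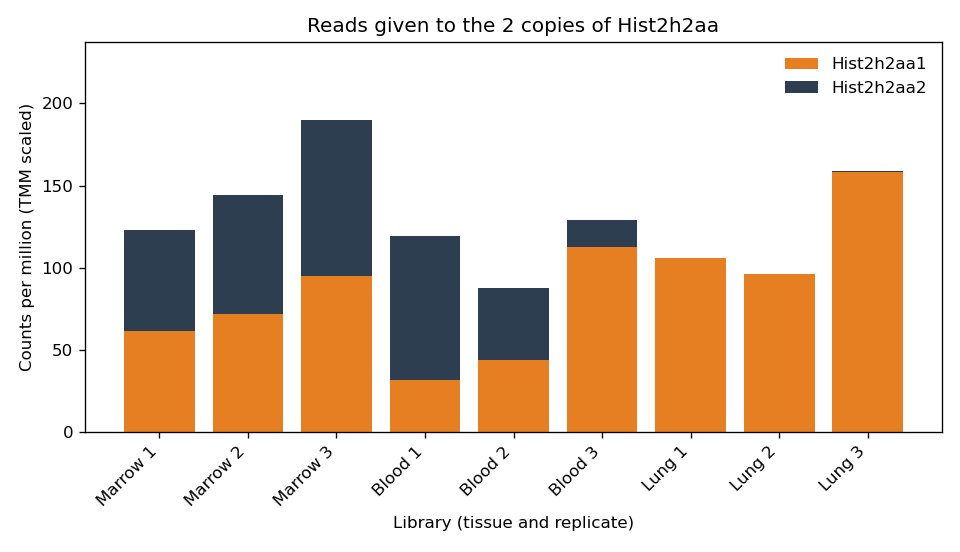
TMM-scaled CPM given to Hist2h2aa1 and Hist2h2aa2 in each library, stacked. The parts swap among blood libraries and Hist2h2aa2 has 1 read in each lung library, while the stacked height overlaps among tissues.

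The same table lists 4 more pairs at shared places. Merging all 5 pairs, an alternative added after the data were seen, left 47 tested features with 1, 3 and 2 calls in the 3 comparisons, where 21.4%, 28.9% and 38.2% of all features passed. Hist2h3c1 and Hist2h3c2, which encode H3, were at 2.31, 2.43 and 2.51 CPM together in marrow, 1.40, 1.56 and 1.90 in blood and 1.40, 1.04 and 0.944 in lung. Blood and lung both lay below marrow. As 1 feature the pair was lower in lung than marrow by -1.10 ± 0.37 (SE) on the log2 scale, adjusted p = 0.0419 (edgeR), though neither copy passed alone, with adjusted p = 0.451 and 0.182.

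Hist1h4n, an H4 gene that shares places with Hist1h4m, was at 5.34, 5.45 and 5.27 CPM in marrow, 6.37, 6.95 and 8.56 in blood and 5.07, 3.19 and 4.39 in lung. Blood was highest and did not overlap with either tissue. The fall from blood to lung was -0.79 ± 0.24 (SE) in log2, adjusted p = 0.0357 (edgeR), and the rise from marrow to blood of 0.45 ± 0.24 had adjusted p = 0.222. The fall was lost in 13 of 20 alternatives, with adjusted p up to 0.277. Hist1h4i, the H4 gene with most reads, was at 14.3, 14.5 and 17.0 CPM in marrow, 17.1, 13.8 and 18.8 in blood and 11.9, 10.9 and 16.6 in lung. These overlapped, with adjusted p = 0.724, 0.245 and 0.409 (edgeR).

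Hist1h3a, an H3 gene at chr13:23761885-23762386, was the only member that this edgeR fit called higher in any comparison. It had 15, 13 and 1 reads in marrow, 1, 2 and 3 in blood and 40, 36 and 4 in lung. Lung replicates 1 and 2 were high and lung replicate 3 was next to blood. The log2 fold change from blood to lung was 3.57 ± 1.17 (SE), adjusted p = 0.0487 (edgeR), and the call was lost in 12 of 18 alternatives, the replicate block among them (adjusted p = 0.0864). Among lung libraries the 2 with more Hist1h3a also had more of the lung epithelium and fibroblast lists, but in marrow the library with 1 read had the most of both. The progenitor list summed to 112, 73.5 and 37.2 CPM in marrow, 11.4, 17.1 and 7.97 in blood and 91.1, 64.2 and 15.5 in lung, so in marrow and in lung replicate 3 was lowest, as for Hist1h3a. The part of these cells was not tested. The RSEM counts were 0, 1 and 1.09 in blood and 21.0, 21.6 and 2.56 in lung, too few for its test.

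EdgeR and DESeq2 each called 0 of the 15 tested H2b genes in any comparison, with 1, 3 and 0 at an unadjusted p under 0.05 in edgeR, and other fits called some of them. Of all genes, edgeR called 21.4%, 28.9% and 38.2% in the 3 comparisons and DESeq2 26.6%, 31.9% and 42.5%. Hist1h2bc, at chr13:23684199-23692480, was at 62.4, 63.5 and 81.8 CPM in marrow, 101, 75.8 and 117 in blood and 76.0, 63.1 and 104 in lung. The log2 fold change from marrow to blood was 0.50 ± 0.23 (SE), adjusted p = 0.155 (edgeR), with overlap between the groups. On FPKM the marrow values of 78.2, 76.5 and 85.1 lay below those in blood at 146, 126 and 163. Hist1h2be was at 9.73, 10.3 and 12.7 CPM in marrow, 14.2, 14.1 and 19.9 in blood and 11.4, 10.6 and 17.5 in lung. Its blood libraries lay above marrow, by 0.56 ± 0.24 (SE) in log2, adjusted p = 0.131 (edgeR).

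Of the 15 tested H2b genes, 12 had a higher fitted level in blood than marrow (median 0.39 in log2) and 14 a lower one in lung than blood (median -0.77). Groups did not overlap for 7 of the 15 from blood to lung, all lower, and 24.0% of all genes tested were lower without overlap. Many of these genes share sequence, so they are not independent. With the replicate block Hist1h2bj, Hist1h2bq and Hist1h2br passed as lower in lung than blood, with log2 fold changes of -1.09, -1.04 and -1.04 and adjusted p = 0.0453, 0.00484 and 0.00667 (edgeR). Hist1h2bq and Hist1h2br also passed as lower in lung than marrow, at -0.62 and -0.67. With limma on log2(FPKM + 0.1), 10 of the 15 passed as lower in lung than blood and 4 as higher in blood than marrow, where 21.2% and 16.7% of all genes passed in those directions. Leaving out lung replicate 3 gave 5 H2b genes lower in lung than blood in the edgeR fit, among them Hist1h2bq and Hist1h2br, and 40.1% of all genes passed in that fit (19.8% higher and 20.2% lower). Of the 15 tested H2a genes, 12 had lower fitted levels in blood than marrow (median -0.63), and 7 were lower without overlap, where 25.6% of all genes were. EdgeR, DESeq2 and limma on log2(FPKM + 0.1) each called 0 of the 15 in that comparison, with 0 at an unadjusted p under 0.05 in edgeR. These fits called 21.4%, 26.6% and 24.8% of all genes.

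Members differed in which transcript their reads were given to. For Hist1h2bc, 99.1% to 99.7% of reads fell on the 728-base transcript of the series table and the rest on the 469-base one. Members were also grouped by the annotated ends of their GENCODE transcripts, with all series reads of a gene put in its group. These shares thus do not measure reads that fell past the stem-loop. Members whose GENCODE transcript ran over 100 bases past the stem-loop held 54.9% of all member reads, and they include Hist1h1c. Members with a transcript that has a long end and no stem-loop match, such as Hist1h2bc, Hist1h2bq and Hist2h2be, held 17.9%. Hist1h2bp, counted in that class, also has a shorter transcript with the stem-loop. Members whose transcripts ended within 100 bases of the stem-loop held 25.6%, mostly on the Hist2h2aa pair. The share of long ends without the motif was 12.5% ± 1.6 in marrow (SD, n = 3), 21.8% ± 3.5 in blood and 20.7% ± 1.2 in lung. The limit of 100 bases was set after the data were seen, and Hist1h2bc holds most of that class.

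The 2 deposited kinds of count did not give members the same levels. For 15 members with 600 or more series reads over the 6 blood and lung libraries, 9 differed by over 1.5-fold in unscaled CPM. Hist1h2bg was at 15.0 CPM in the series table and 1.46 in the RSEM tables, and Hist1h2al at 3.48 and 0.0142. Hist1h1c went the other way, at 204 and 369. The series row for Hist1h1c is 725 bases long and the GENCODE transcript 1560. In the RSEM tables H1 held 57.5%, 61.8% and 50.4% of member counts in blood and 52.7%, 52.1% and 46.1% in lung, which overlapped between the tissues. The families' sums moved by -0.49 for H1, -0.36 for H2b and -0.26 for H4 in log2 from blood to lung there.

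Genes of the pathways around histone transcripts were read from lists. Of 23 tested genes that process the 3′ end of histone transcripts, 2 were higher and 2 lower in blood than marrow, where 8.34% and 13.1% of all genes were called. Cpsf1 and Lsm11 rose by 0.69 and 1.43, and Ncbp1 and Cdk9 fell by 1.24 and 0.78 in log2. In lung 5 were lower than in blood (15.7% of all genes), and 7 were lower and 1 higher than in marrow (22.6% and 15.6%). From blood to lung 0 were higher, where 13.2% of all genes were, and no difference between the list and all genes was tested. Those lower than in blood included Cpsf3, the endonuclease of the cleavage complex, with a change of -0.67, and Cpsf2 with -1.37. Lsm10, a ring subunit of the U7 particle that pairs with histone transcripts, was lower in lung than blood by -0.94, and Casp8ap2 by -0.92. Slbp was at 41.9, 45.4 and 49.5 CPM in marrow, 39.9, 29.5 and 33.7 in blood and 35.3, 39.9 and 53.1 in lung, with adjusted p = 0.141, 0.228 and 0.706 (edgeR).

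Of 24 tested histone chaperone and acetylase genes, 2 were higher and 1 lower in blood than marrow, 5 higher and 4 lower in lung than blood, and 5 in each direction in lung against marrow. All genes were called at 8.34% and 13.1%, 13.2% and 15.7%, and 15.6% and 22.6% in the same order, so nothing is read from these counts about the list as such. Hat1, the acetylase of new H4, was at 12.1, 12.1 and 15.2 CPM in lung against 3.49 to 4.62 elsewhere, a rise of 1.73 from blood. The histone importin Ipo4 rose by 1.90 and the chromatin assembly subunit Chaf1b by 2.76 in the same comparison. Cabin1, of the complex that deposits H3.3, fell by 1.22. Nap1l1, a chaperone of H2a and H2b, was at 30.5, 25.1 and 23.3 CPM in marrow and 52.9, 56.9 and 47.7 in blood, a rise of 0.996, and Nap1l4 fell by 0.90. Supt16, a subunit of the FACT chaperone, was 0.59 higher in blood than marrow and differed by -1.01 from blood to lung.

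Genes of replication-independent variants, whose transcripts mostly carry polyA tails, were also read. Of 11 tested, 4 passed from marrow to blood, each lower, beside 13.1% of all genes: H3f3b, H3f3a, H2afz and Cenpa. H3f3b, which encodes H3.3, was at 3504, 4020 and 4543 CPM in marrow, 982, 825 and 746 in blood and 1650, 1505 and 2409 in lung. Blood was lowest without overlap, by -2.24 ± 0.26 (SE) in log2 against marrow, adjusted p = 0.000497 (edgeR), and lung was above blood by 1.12 ± 0.25, adjusted p = 0.0103 (edgeR). H3f3a fell by 0.89 and H2afz by 1.02 from marrow to blood.

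Of 30 tested S phase genes 7 passed from marrow to blood, all lower, among them Ccna2, Uhrf1, Ccne2 and Rrm2 with changes of -4.86, -4.09, -2.93 and -2.73. Of 20 mitosis genes 11 passed, all lower, with Cenpf at -5.99, Nusap1 at -4.91, Tpx2 at -4.34 and Mki67 at -4.21. The all-gene share called lower in that comparison was 13.1%. The S phase list summed to 571.2, 549 and 516 CPM in marrow, 474, 305 and 274.3 in blood and 272.5, 272.6 and 214 in lung. These tissues did not overlap, though blood and lung came within 2 CPM, in the order marrow, blood, lung that the H1 sum also had. From blood to lung, however, 2 of the 30 genes passed as higher and 1 as lower, beside 13.2% and 15.7% of all genes. The median log2 fold change of the 30 was 0.74 there, against the direction of the sum. The sum of the mitosis list was 189, 133 and 49.3 CPM in marrow, 24.3, 19.6 and 13.7 in blood and 64.5, 76.8 and 33.3 in lung. For mitosis the blood libraries lay below all others and lung overlapped with marrow. Of the 20 mitosis genes, 3 passed as higher and 1 as lower in lung than blood, beside 13.2% and 15.7% of all genes. Mki67, Top2a and Tpx2 rose in that comparison by 3.67, 2.38 and 2.82. Of 14 genes of neutrophil chromatin, 5 were lower in blood than marrow and 7 lower in lung than marrow, beside 13.1% and 22.6% of all genes. Those lower in blood included Padi4, which citrullinates histones, at -1.38, and the nucleosome-binding protein gene Hmgn2 at -1.64. The granule enzyme genes Mpo and Elane, made in precursors, were at 9.41 to 161 and 2.43 to 44.2 CPM in marrow and at most 0.218 and 0.0906 in blood.

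**Figure D5:**
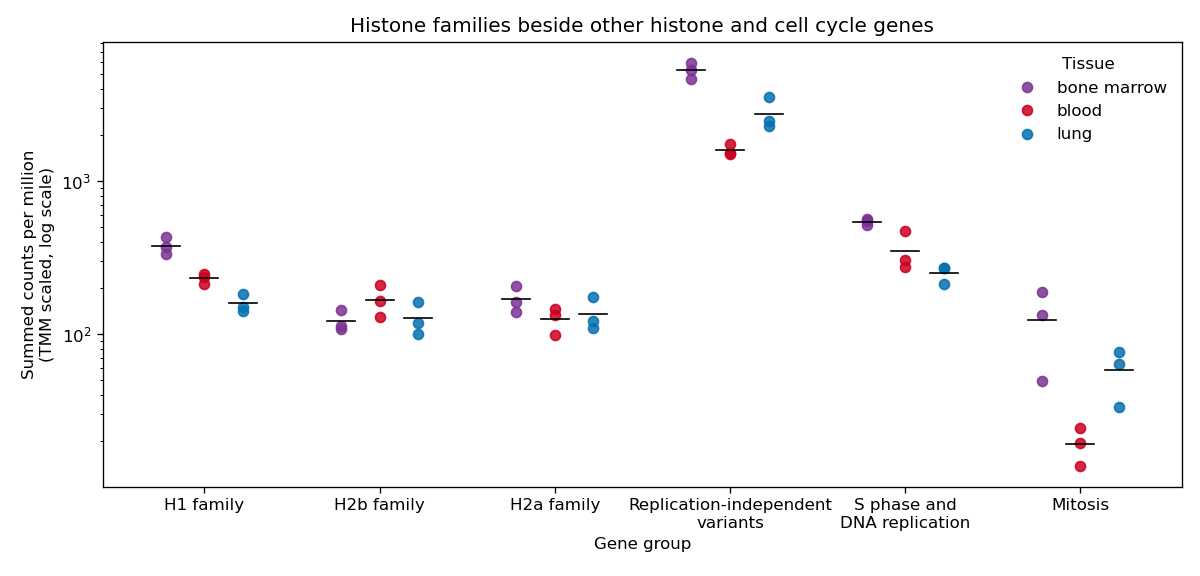
Summed TMM-scaled CPM (log axis) of 3 histone families and 3 gene lists, with points for libraries and black lines at tissue means. The mitosis list is lowest in blood, at 13.7 to 24.3, and the H1 sum, mostly Hist1h1c, is lowest in lung, at 143 to 183.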

How the data were processed

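Neutrophils sorted from bone marrow, blood and lung of mice were sequenced as polyA RNA in 3 replicates per tissue. The series table gives a count and an FPKM per RefSeq transcript; the deposited estimated counts are whole numbers within 1 read above the value the FPKM implies, and the authors' FPKM is per kilobase and 1e6 reads. The marrow files repeat that table. The blood and lung files hold deposited RSEM estimated (expected) counts and TPM per gene, and TPM was not used in a test. Bowtie2, STAR, StringTie 2.1.3b, RSEM, DESeq2 and the build mm10 are named in the submitters' processing notes, without their roles. Strand handling is not given in the sources used here.

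Counts were summed by gene identifier. Libraries of 42045548 to 56796219 reads were fitted together with edgeR 4.0.16 (robust quasi-likelihood, TMM, filterByExpr, R 4.3.3), checked on simulated counts, with Benjamini-Hochberg adjustment over 13510 genes at 0.05. Estimated counts of the RSEM tables were rounded for their own fit. limma 3.58.1 and DESeq2 1.42.0 gave alternatives, with pseudocounts of 0.1 and 1 on FPKM. Symbols and sequences were matched to GENCODE M21 and to RefSeq promoters of GRCm38.p6 with Python 3.11.15. The members and the gene lists were chosen with earlier results of these data known. Genes were named by rule: the 12 members with the highest mean FPKM, up to 10 called per direction and comparison, members above 10% of their family's reads, and up to 4 called genes per list, direction and comparison. Other members stand in counts and ranges, and some named beyond the rule were chosen after their values were seen. Totals of reads without unique molecular identifiers cover counting error only, so intervals would be too narrow. Deviations from the tissue means of same-numbered libraries correlated at 0.127 to 0.518 between blood and lung and 0.153 to 0.186 between marrow and lung, 3 pairs each, all over 0.1, so these were also fitted with the number as a block. Between marrow and blood 1 of 3 pairs was at 0.0489. The labels name no shared animal. P-values measure the spread between the 3 replicates of a tissue.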

Additional observations from a re-analysis of the deposited data

How the results depend on the processing

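Against 1, 4 and 2 calls for marrow to blood, blood to lung and marrow to lung, DESeq2 size factors gave 0, 2 and 3 calls, upper-quartile scaling 3, 3 and 6, no filter 0, 1 and 2, and a filter of mean CPM of at least 1 gave 0, 1 and 3. DESeq2 gave 3, 3 and 5, limma-voom 1, 2 and 3, limma on log2(FPKM + 0.1) 8, 16 and 5, and on log2(FPKM + 1) 8, 15 and 5. Only the 6 libraries compared gave 5, 1 and 2. For marrow to blood the 3 fits with 0 calls had 4, 6 and 5 members at an unadjusted p under 0.05. RSEM counts gave 0 of 24 tested from blood to lung, with 5 at an unadjusted p under 0.05. Leaving out each library gave 0 to 3, 1 to 11 and 2 to 3 calls; the 11 came without lung replicate 3. The cause was not tested. Over these alternatives, merged copies apart, 8.51% to 31.6%, 13.2% to 40.1% and 22.4% to 47.8% of all genes were called. Merged copies, CPM of the library total and summed FPKM were chosen after the data were seen.

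With the replicate block the calls were 4, 7 and 5, where 29.5%, 35.2% and 44.2% of all genes passed. From marrow to blood 2 were higher and 2 lower, where 12.1% and 17.5% of all genes were. Same-numbered libraries of different tissues correlated at 0.0489 to 0.518 over 9 pairs and others at -0.504 to 0.453 over 18, and marrow replicate 1 correlated better with blood replicate 2 (0.405) than with blood replicate 1. From marrow to blood the block added Hist1h1d (adjusted p = 0.046), Hist1h2bc (0.0207) and Hist1h2be (0.0219), and from marrow to lung also Hist1h4h.

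The sum over all members from marrow to blood became 0.0513 with CPM of the library total and 0.0382 with summed FPKM. From marrow to lung it became -0.34 with upper-quartile scaling, -0.42 with CPM of the library total and -0.38 with summed FPKM. Leaving out each library gave -0.42 to -0.24, -0.49 to -0.21 and -0.81 to -0.54.

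Single members with small differences changed sign. From blood to lung, Hist1h1e gave -0.10 without lung replicate 1 (-0.10 to 0.599 over libraries left out) and -0.35 with RSEM counts. Hist1h3e gave 0.0780 with upper-quartile scaling, 0.23 without blood replicate 1, and 0.13 and 0.16 without lung replicates 2 and 3 (-0.957 to 0.23). Hist1h3f gave 0.0118 with limma-voom, 0.28 without blood replicate 3 (-0.80 to 0.28) and 0.15 with RSEM counts, and Hist2h2aa2 0.20 with RSEM counts. From marrow to lung, Hist1h2bc gave -0.0341 (-0.0341 to 0.369) and Hist1h2be -0.0293 (-0.0293 to 0.393) without lung replicate 3. Hist1h2bg gave -0.00864 with limma-voom and -0.00758 with the replicate block, -0.12 without marrow replicate 1 and -0.18 without lung replicate 3 (-0.18 to 0.139), and Hist1h4i 0.0854 with upper-quartile scaling. From marrow to blood, Hist2h2aa1 gave 0.17 and 0.07 without blood replicates 1 and 2 (-0.956 to 0.17), and Hist2h3c1 0.18 with the replicate block and 0.11 without blood replicate 2 (-1.16 to 0.11 over libraries left out).

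Members under 17 reads, near-identical copies and the split of copies limit single genes, and family sums limit less. Between families, levels depend on the annotated transcript ends.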
